A study of Mus musculus with 19 samples.

Results

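The *Slco* genes encode organic anion transporting polypeptides, carriers that take bile acids, steroid conjugates, thyroid hormones, prostaglandins and many drugs into cells. The 6 genes described here, *Slco1a1*, *Slco1a4*, *Slco1b2*, *Slco2b1*, *Slco2a1* and *Slco3a1*, were chosen by their annotated gene symbols. They are 6 of the 14 *Slco* genes with a named probe set on the array, and of 19505 genes in all. Each was measured by 1 probe set.

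RNA from the livers of 10 mutant (*Mmut*-ko/ki) and 9 control (*Mmut*-ki/wt) male C57BL/6N mice was hybridized to Mouse Clariom S arrays, 1 mouse per array, to ask how gene expression in liver differs in a model of methylmalonic aciduria. Mutants carried a knock-out allele of *Mmut*, the gene of the mitochondrial enzyme methylmalonyl-CoA mutase, over a knock-in allele encoding the change p.Met700Lys, and controls carried the same knock-in allele over a wild-type allele, so that no mouse had 2 wild-type alleles. The alleles are constitutive, and so *Mmut* was altered in every tissue and not in liver alone. Both genotypes came from the same cross, of mothers heterozygous for the knock-out with fathers homozygous for the knock-in, were raised on a diet rich in protein, were fed *ad libitum* and, by the labels, were 20 weeks of age.

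Values are log2 signals normalized across arrays, so that a difference of 1 is a doubling. *Mmut* itself averaged 11.54 ± 0.25 in mutants and 13.20 ± 0.23 in controls (SD, n = 10 and 9), and all 10 mutants were below every control. Groups did not overlap in this way, in either direction, for 1.48% of all genes. The hepatocyte markers were high on every array, with a mean over the 8 genes of 19.08 to 19.20 in mutants and 19.04 to 19.19 in controls, and 0 of the 8 had a limma adjusted p under 0.05. Of these, *Alb*, *Apoa1*, *Ttr* and *Trf* stood at 19.91 in both genotypes, next to the highest value on the arrays (19.92), so that a change in these 4 could hardly have been measured. Among the rest, *Serpina1c* had 7 mutants and *Cps1* 5 mutants below every control, *Fabp1* had 4 above, and *Tat* had 6 above and 1 below. Whether the share of hepatocytes was equal was not tested. Probe sets detected above background (detection p under 0.05) made up 69.8 to 77.1% of the array in mutants and 68.0 to 72.7% in controls. The highest of these shares belonged to mutant replicate 1. In bulk liver tissue, fewer cells of a type and less RNA per cell cannot be told apart.

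Hepatocytes take up anions from portal blood across the sinusoidal membrane. In mouse liver this is largely the work of Slco1a1, Slco1a4 and Slco1b2, with Slco2b1 beside them, while Slco2a1 is known as the prostaglandin transporter and Slco3a1 is expressed in many tissues. *Slco1a1* is known to be higher in male than in female mouse liver and to depend on androgens and growth hormone, and *Slco1a4* is a known target of the xenobiotic receptors CAR and PXR.

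Of the 6 genes, *Slco1a4* rose in mutant liver, *Slco1a1* and *Slco2b1* fell, and *Slco1b2*, *Slco2a1* and *Slco3a1* did not pass the test (limma, Benjamini-Hochberg adjusted p under 0.05 over all 19505 genes). The largest differences were opposite in sign and belonged to neighbors on chromosome 6. Over all genes, 10.1% were called in either direction, 4.73% being higher and 5.33% lower in mutants. All 6 genes were detected on all 10 mutant and all 9 control arrays.

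The promoters of the chromosome 6 genes are shown because *Slco1a1* and *Slco1a4* lie close together, are related in sequence and moved in opposite directions, while their neighbor *Slco1b2* did not pass the test. They run 5′ to 3′ along the gene's strand and hold 250 bases before and 50 bases after the annotated start (RefSeq, GRCm38.p6). An entry was found for 5 of the 6 genes. Capitals mark AGGTCA, the half-site that many nuclear receptors bind, and CCAAT, the CCAAT box, on either strand, so that TGACCT and ATTGG are their reverse complements. The second start of *Slco1a5*, a relative that did not pass the test, is shown for its likeness to *Slco1a4*.
Slco1a1 (chr6:141946913-141947212, minus strand): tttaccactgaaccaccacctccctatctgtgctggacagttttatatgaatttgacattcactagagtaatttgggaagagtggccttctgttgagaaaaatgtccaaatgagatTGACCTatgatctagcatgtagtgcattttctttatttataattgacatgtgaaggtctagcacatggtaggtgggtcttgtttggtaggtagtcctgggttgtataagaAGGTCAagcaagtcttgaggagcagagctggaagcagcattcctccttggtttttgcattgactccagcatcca
Slco1a4 (chr6:141856171-141856470, minus strand): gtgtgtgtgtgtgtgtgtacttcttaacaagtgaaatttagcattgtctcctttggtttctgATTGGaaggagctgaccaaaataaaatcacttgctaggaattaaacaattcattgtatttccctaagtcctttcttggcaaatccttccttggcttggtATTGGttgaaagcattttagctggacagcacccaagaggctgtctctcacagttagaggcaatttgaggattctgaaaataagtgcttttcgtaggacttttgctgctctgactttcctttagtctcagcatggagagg
Slco1b2 (chr6:141629268-141629567, plus strand): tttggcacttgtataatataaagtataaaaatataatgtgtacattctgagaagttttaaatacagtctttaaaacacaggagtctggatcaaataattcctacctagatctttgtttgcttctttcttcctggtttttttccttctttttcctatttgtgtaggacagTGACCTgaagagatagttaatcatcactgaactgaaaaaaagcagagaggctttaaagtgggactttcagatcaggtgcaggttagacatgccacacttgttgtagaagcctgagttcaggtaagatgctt
Slco1a5 (chr6:142278825-142279124, minus strand): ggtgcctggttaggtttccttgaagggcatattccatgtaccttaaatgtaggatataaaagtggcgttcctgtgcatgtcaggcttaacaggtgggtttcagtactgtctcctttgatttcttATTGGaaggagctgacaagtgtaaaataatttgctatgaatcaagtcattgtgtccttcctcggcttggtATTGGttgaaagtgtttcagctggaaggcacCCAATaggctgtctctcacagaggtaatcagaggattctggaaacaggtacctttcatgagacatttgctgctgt

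*Slco1a1* had 2 AGGTCA matches and no CCAAT in this window, *Slco1a4* had 2 CCAAT matches and no AGGTCA, and *Slco1b2* had 1 AGGTCA. Among 32851 mouse promoters of this length, 16.3% held AGGTCA and 37.4% held CCAAT, so neither motif is rare and the matches are a description only. The windows of *Slco1a4* and of the second start of *Slco1a5* shared 194 of 238 aligned bases (81.5%), both ATTGG matches of *Slco1a4* having a counterpart in *Slco1a5*. *Slco1a1* and *Slco1a4* shared 165 of 253 aligned bases (65.2%). The core of the antioxidant response element, TGACNNNGC, was found in 12.4% of all promoters and in 0 of the 7 windows listed for these 5 genes.

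*Slco1a1* encodes a sinusoidal carrier of bile acids and steroid conjugates. Its log2 signal was 16.79, 13.73, 12.67, 13.62, 14.79, 13.30, 15.59, 16.23, 16.13 and 13.13 in mutant replicates 1 to 10, with a median of 14.26. In the 9 controls the lowest value was 16.68, the median 16.85 and the highest 16.98. Thus 9 of 10 mutants lay below every control, and replicate 1, the array with the highest share of detected probe sets, lay within the control range. The change was -2.23 (SE 0.42, 95% confidence interval -3.10 to -1.37, limma adjusted p = 6.82e-04), a signal 4.7-fold higher in controls. This limma fit takes the SD as equal in both genotypes. A Welch t-test, which does not, gave an adjusted p of 0.0191. An exact permutation test over all 92378 splits of the arrays gave p = 3.57e-04 (two-sided). Without mutant replicate 1 the change was -2.48.

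The spread of *Slco1a1* also differed between genotypes, which is given as a description with no test. Its SD was 1.49 in mutants and 0.11 in controls, a ratio of 13.9, and its range was 4.11 in mutants and 0.30 in controls. Among 10849 genes detected on all arrays, 0.203% had a higher SD than *Slco1a1* in mutants, whereas 98.6% had a higher SD than it in controls. By this measure *Slco1a1* was among the most variable genes of mutant liver and among the least variable of control liver. For *Slco1a4* the SDs were 0.91 in mutants and 0.75 in controls, and only 0.765% of the same genes varied more in mutants and 0.931% in controls. These ranks took no account of signal level, and *Slco1a1* is bright. Control SDs of other bright genes were 0.12 for *Ghr* (mean 17.42), 0.20 for *Slco1b2* (mean 16.48) and 0.37 for *Hsd3b5* (mean 17.21).

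*Slco1a4* encodes a sinusoidal carrier that, beside bile acids, takes up the heart drug digoxin. The log2 signal was 11.93, 14.12, 14.57, 13.55, 13.52, 12.75, 13.92, 13.47, 12.08 and 14.36 in mutant replicates 1 to 10, with a median of 13.54. In the controls it was 12.14, 10.11, 12.08, 11.53, 12.68, 11.26, 11.75, 11.29 and 12.29 in replicates 1 to 9, with a median of 11.75. Here 8 of 10 mutants exceeded every control, and replicates 1 and 9 lay within the control range. The change was 1.74 (SE 0.33, 95% confidence interval 1.07 to 2.42, limma adjusted p = 6.79e-04), or 3.35-fold higher in mutants, with an exact permutation p of 5.41e-04. Across all genes, 4.39% had at least 8 of 10 mutants past every control in 1 direction. Control replicate 2 had the lowest value of all, and without it the change was 1.55.

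*Slco2b1* encodes a carrier of steroid sulfates and of several drugs that is found in liver, gut and other tissues. Its log2 signal was 10.67, 10.96, 10.29, 10.79, 10.54, 10.35, 10.84, 10.37, 10.04 and 11.01 in mutant replicates 1 to 10, with a median of 10.60. In control replicates 1 to 9 it was 11.01, 10.99, 11.49, 11.21, 10.83, 11.29, 10.98, 11.00 and 11.24. The groups overlapped at the edge, and 7 of 10 mutants were below every control. The change was small but steady, at -0.53 (SE 0.13, 95% confidence interval -0.80 to -0.26, limma adjusted p = 0.00849), a signal 1.44-fold higher in controls, with an exact permutation p of 4.98e-04.

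*Slco1b2*, the mouse counterpart of the human OATP1B carriers of bilirubin conjugates and statins, showed no change past the test. It ranged over 16.01 to 16.79 in mutants (median 16.42) and 16.29 to 16.81 in controls (median 16.41), and 7 of 10 mutants lay within the control range while 3 lay below it. The difference was -0.08 (95% confidence interval -0.31 to 0.15, limma adjusted p = 0.763). An interval of this width leaves room for a change of either sign, but not for one of the size seen in *Slco1a1* or *Slco1a4*.

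*Slco2a1*, which moves prostaglandins into cells for breakdown, ranged over 6.82 to 7.48 in mutants (median 7.15) and 6.42 to 7.30 in controls (median 6.86). The difference was 0.31 (95% confidence interval 0.05 to 0.57). Its exact permutation p was 0.021 before adjustment, and its limma adjusted p over all genes was 0.139, so the gene was not called. *Slco3a1*, described in human cells as a carrier of prostaglandins and thyroxine, ranged over 5.98 to 6.93 in mutants (median 6.40) and 5.86 to 6.57 in controls (median 6.30). Its difference was 0.20 (95% confidence interval -0.05 to 0.45, limma adjusted p = 0.357).

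**Figure D1:**
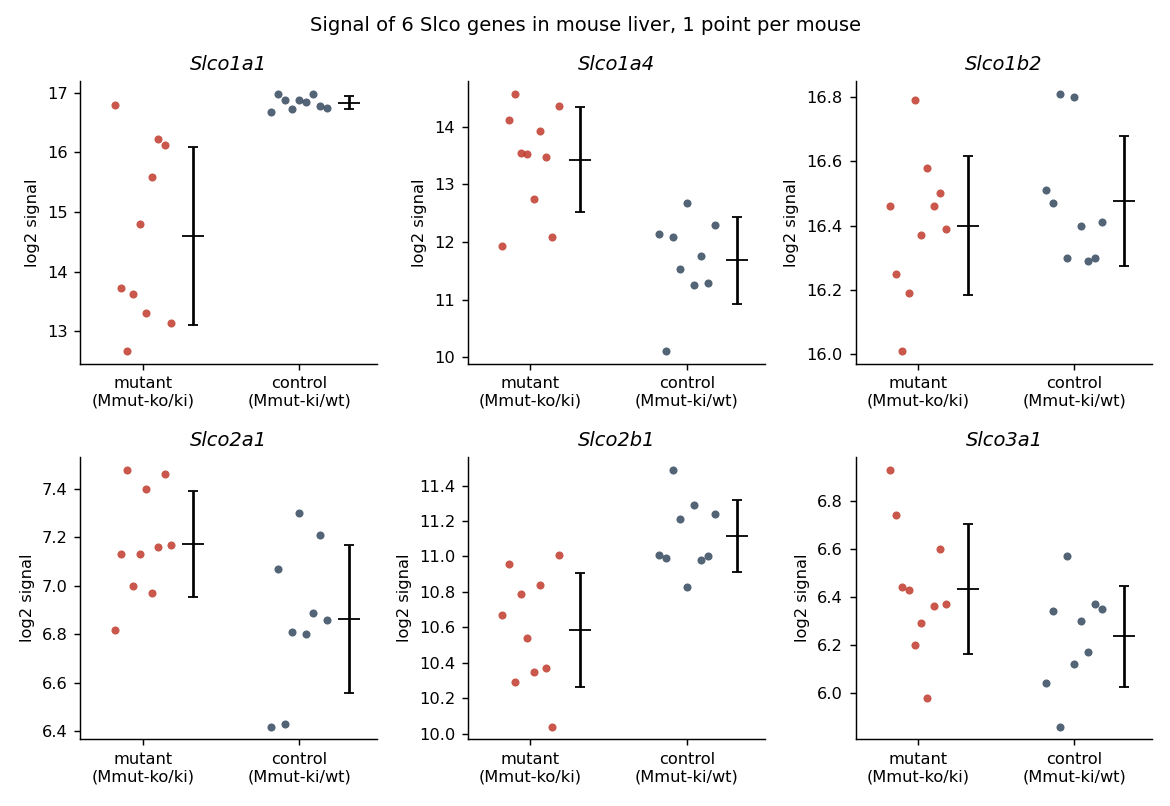
Log2 signal of the 6 *Slco* genes in mutant and control livers, 1 point per mouse, with the mean and SD beside each group as a bar; each panel has its own vertical axis, which does not start at 0. The mutants spread over 12.67 to 16.79 for *Slco1a1* while the controls lie between 16.68 and 16.98, and 8 of 10 mutants lie above every control for *Slco1a4*.

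The other 8 *Slco* genes on the array did not pass the test in either direction, with changes of -0.38 to 0.55. *Slco1a5* and *Slco1a6*, close relatives of *Slco1a1* and *Slco1a4*, were detected on all 19 arrays and differed by 0.52 (SE 0.20, limma adjusted p = 0.0992) and 0.55 (SE 0.21, limma adjusted p = 0.11). These 2 genes and *Slco6d1* had an unadjusted limma p under 0.05. The remaining 6, *Slco1c1*, *Slco4a1*, *Slco4c1*, *Slco5a1*, *Slco6c1* and *Slco6d1*, were each detected on fewer than 6 arrays, so that a change in them may not be measurable. The *Slco1a* genes are paralogs of similar sequence, and whether their probe sets share signal was not tested.

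**Figure D2:**
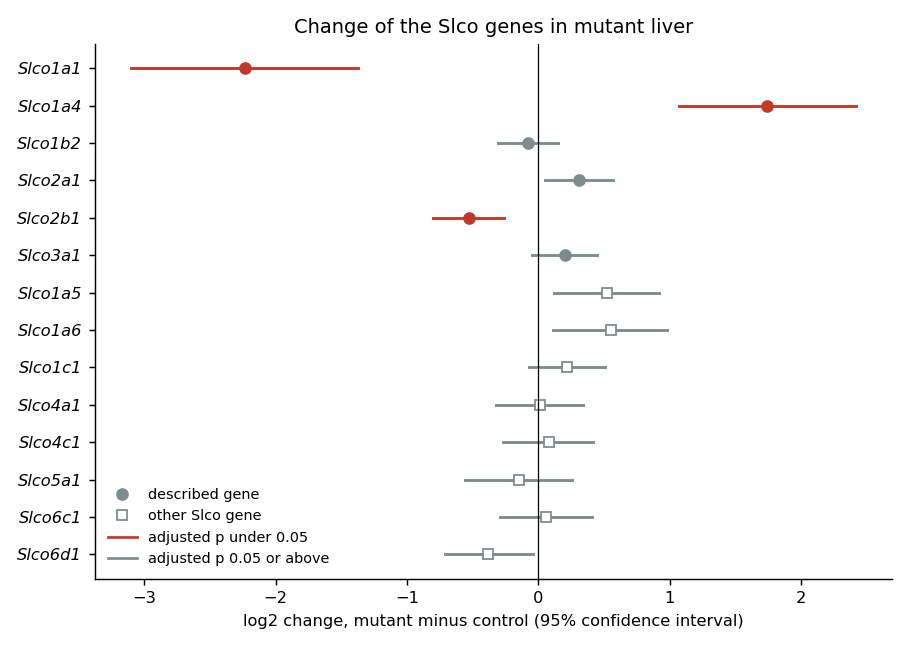
Log2 change (mutant minus control, horizontal axis) of the 14 *Slco* genes with 95% confidence intervals; circles are the 6 described genes, squares the other 8, and red marks an adjusted p under 0.05. *Slco1a1* at -2.23 and *Slco1a4* at 1.74 stand apart from the rest, whose changes lie between -0.53 and 0.55.

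The genes of the *Slco1* cluster did not move as a block. In the RefSeq order along chromosome 6 the measured genes were *Slco1c1*, *Slco1b2*, *Slco1a4*, *Slco1a1*, *Gm6614*, *Slco1a6* and *Slco1a5*. Of these 7, 1 was higher, 1 was lower and 5 did not pass the test. *Gm6614*, next to *Slco1a1* on its far side, differed by 0.03 (limma adjusted p = 0.956).

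**Figure D3:**
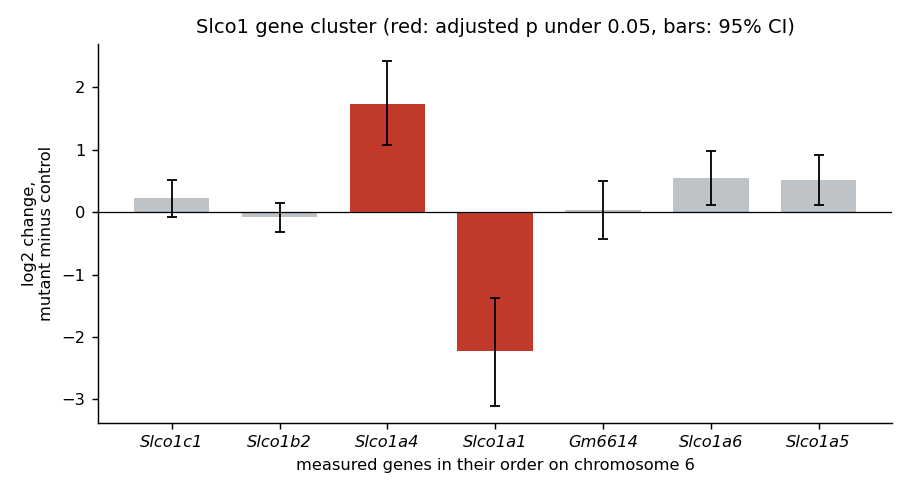
Log2 change (mutant minus control, vertical axis) of the measured genes of the *Slco1* cluster in their order on chromosome 6, with 95% confidence intervals; red bars have an adjusted p under 0.05. The adjacent bars of *Slco1a4* (1.74) and *Slco1a1* (-2.23) point in opposite directions.

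Because a call for one gene and none for another does not show that they differ, the change was compared between every pair of the 6 genes by an exact permutation test of the difference within each array, with p-values adjusted over the 15 pairs. In 13 of 15 pairs the changes differed. The change of *Slco1a1* was 3.98 log2 units below that of *Slco1a4* (difference -3.98, exact permutation, adjusted p = 0.00103) and also below those of *Slco1b2* (difference -2.16, exact permutation, adjusted p = 0.00103) and *Slco2b1* (difference -1.70, exact permutation, adjusted p = 0.0108). The change of *Slco1b2* was above that of *Slco2b1* (difference 0.45, exact permutation, adjusted p = 0.0135). *Slco1b2* and *Slco3a1* (difference -0.27, adjusted p = 0.156) and *Slco2a1* and *Slco3a1* (difference 0.11, adjusted p = 0.488) did not differ past the threshold in this exact permutation test. The pair *Slco1b2* and *Slco2a1* passed narrowly (difference -0.38, exact permutation, adjusted p = 0.0406) but missed the threshold when any 1 of 10 particular arrays was left out (adjusted p = 0.0513 to 0.0892).

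The signals of both genes in single livers are given as a description, since the 2 were picked for their opposite changes. *Slco1a1* minus *Slco1a4* on the same array ranged over -1.89 to 4.86 in mutants, with a median of 0.91, and over 4.19 to 6.87 in controls, with a median of 5.18. This difference was lower than in every control in 9 of 10 mutants, the count that *Slco1a1* alone gave. Among these 9, replicate 9 had an *Slco1a4* signal within the control range (12.08). Mutant replicate 1, with 16.79 for *Slco1a1* and 11.93 for *Slco1a4*, was again the mouse within the control range, and mutant replicate 3 had both the lowest *Slco1a1* (12.67) and the highest *Slco1a4* (14.57).

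**Figure D4:**
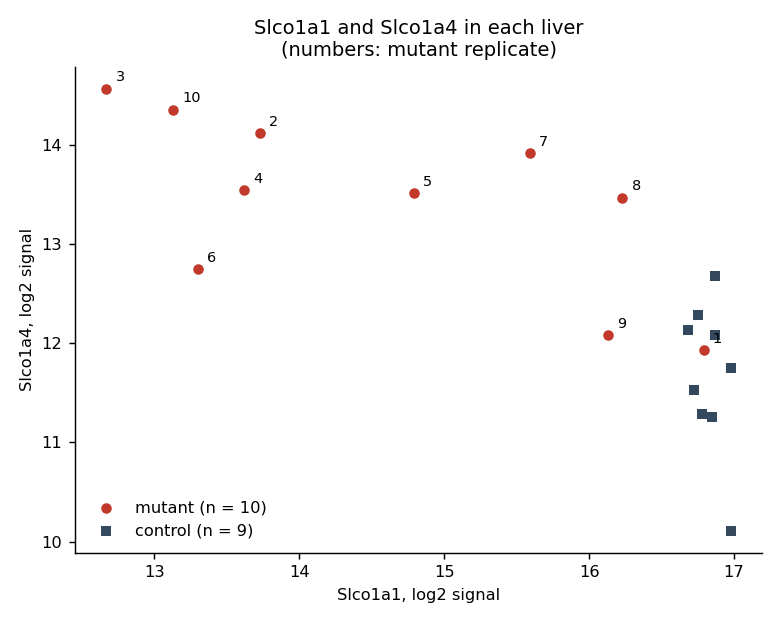
*Slco1a1* (horizontal axis) against *Slco1a4* (vertical axis) as log2 signals, 1 point per mouse, with mutants as circles labelled by replicate and controls as squares. The controls form a narrow column between 16.68 and 16.98 on the horizontal axis, and the mutants run from replicate 1, beside the controls, to replicate 3 at 12.67 and 14.57.

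Whether the 6 genes varied together among mice of 1 genotype was asked after removing each genotype's mean, over 19 arrays and 15 pairs, with permutation p-values adjusted over the pairs. Only *Slco2a1* and *Slco2b1* passed, with r = -0.62 (permutation p = 0.0027, adjusted p = 0.041) and rho = -0.64 (permutation p = 0.0026, adjusted p = 0.039). Their r was -0.71 without the 2 arrays farthest from the median of *Slco2a1*. Within genotypes it was -0.68 over the 10 mutants (permutation adjusted p = 0.28) and -0.65 over the 9 controls (exact permutation, adjusted p = 0.45), so that the sign held in both and neither passed alone.

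*Slco1a1* and *Slco1a4* gave r = -0.54 (permutation p = 0.031, adjusted p = 0.20) and rho = -0.47 (permutation p = 0.063, adjusted p = 0.24), and r = -0.30 without the 2 farthest arrays. Over the 10 mutants alone r was -0.67 (permutation p = 0.038, adjusted p = 0.28) and rho -0.73 (permutation p = 0.019, adjusted p = 0.29). A joint variation of the 2 genes from mouse to mouse thus did not pass the correction.

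The genes whose signal followed *Slco1a1* most closely, by Pearson's r of the value minus the genotype mean over 19 arrays and 10848 genes detected on all of them, were *Cyp2d9* (r = 0.93), *Serpina1e* (r = 0.92) and *Hsd3b5* (r = 0.91). *Cyp2d9*, a male-predominant cytochrome P450, ranged over 16.96 to 19.14 in mutants and 19.08 to 19.55 in controls. *Hsd3b5*, a male-predominant steroid dehydrogenase, ranged over 6.54 to 14.68 in mutants and 16.39 to 17.53 in controls, a change of -7.28. These are descriptions of the 19 livers, in which the mutants supply most of the variation.

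For *Slco1a4* the closest were *Mpc1*, a subunit of the mitochondrial pyruvate carrier (r = 0.82), *Tmprss2*, a membrane serine protease (r = 0.77), and *Ctsl*, the lysosomal protease cathepsin L (r = 0.75). None of them passed the test between genotypes, *Mpc1* differing by 0.29 (SE 0.13, limma adjusted p = 0.158). For *Slco2b1* they were *Abat*, the transaminase that breaks down GABA (r = 0.85), *Cps1*, the entry enzyme of the urea cycle (r = 0.83), and *Psen2*, a subunit of gamma-secretase (r = 0.82). Of these, *Abat* fell with *Slco2b1*, by 0.86 (SE 0.16, limma adjusted p = 5.99e-04), and so did *Psen2*, by 0.49 (SE 0.13, limma adjusted p = 0.0157), while *Cps1* did not pass the test.

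*Slco1a1* fell alongside a list of male-predominant liver genes. Of 15 measured, 12 fell and 0 rose, with a median change of -1.46 against 0.0 over all genes tested. *Cyp7b1*, an oxysterol hydroxylase, fell by 4.08 (SE 0.32, limma adjusted p = 1.59e-09), and *Susd4*, a complement regulator, fell by 3.24. Among 17 female-predominant genes 10 rose and 1 fell, with a median of 1.30. *Cyp3a41b* rose by 2.81, *Cyp3a44* by 2.14 and *Acot3*, a peroxisomal thioesterase, by 4.64, while the gene that fell was *Cyp17a1*, the steroid 17-alpha-hydroxylase. In the same livers the paper also reports higher expression of Ppar signaling genes and of peroxisomal genes of fatty acid oxidation. Whether *Acot3* or any other peroxisomal gene of this list rose with them was not tested.

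The male- and female-predominant lists were set against the *Slco* genes among the 10 mutants alone. So were lists of CAR and PXR targets and of targets of the oxidant-responsive factor NRF2, both described below. This gave 156 relations of the 3 changed members with list genes, with p-values adjusted over the 156. By Pearson's r 13 of the 156 passed, and by Spearman's rho 1 passed, *Slco1a1* with *Cyp2d9*. *Slco1a1* was positively correlated with all 15 male-predominant genes, with r between 0.14 and 0.94 and a median of 0.83. Without the 2 farthest mutants r ranged from -0.11 to 0.91. Of the 15, 8 passed by r and 1 by rho. With *Cyp2d9* r was 0.94 (permutation p = 5e-05, adjusted p = 0.0078) and rho 0.93 (permutation p = 3.1e-04, adjusted p = 0.048), and r was 0.91 without the 2 farthest mutants. With *Hsd3b5* r was 0.91 (permutation p = 0.001, adjusted p = 0.029) and rho 0.89 (permutation p = 0.0012, adjusted p = 0.074). Mutants with low *Slco1a1* thus also had low signals of these 2 transcripts.

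With the 17 female-predominant genes *Slco1a1* was negatively correlated in 14 (median r = -0.48), and 1 passed by r and 0 by rho. That gene was *Cyp2b9*, named here after its values were seen, with r = -0.92 (permutation p = 4.6e-04, adjusted p = 0.029) and rho = -0.78 (permutation p = 0.011, adjusted p = 0.12). *Slco1a4* showed the opposite signs. It was negatively correlated with all 15 male-predominant genes (median r = -0.58). Of these, *Cyp2d9* passed by r (r = -0.84, permutation p = 0.0029, adjusted p = 0.037, and rho = -0.87, permutation p = 0.0023, adjusted p = 0.074), though r was -0.55 without the 2 farthest mutants. Over all 15 genes r ranged from -0.59 to 0.08 without those 2 mutants, so that the negative sign did not hold for every gene. With female-predominant genes *Slco1a4* was positively correlated in 14 of 17. *Abcd2*, a peroxisomal transporter also named after its values were seen, passed by r (r = 0.89, permutation p = 0.0013, adjusted p = 0.029, and rho = 0.76, permutation p = 0.015, adjusted p = 0.12), with r = 0.63 without the 2 farthest mutants.

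**Figure D5:**
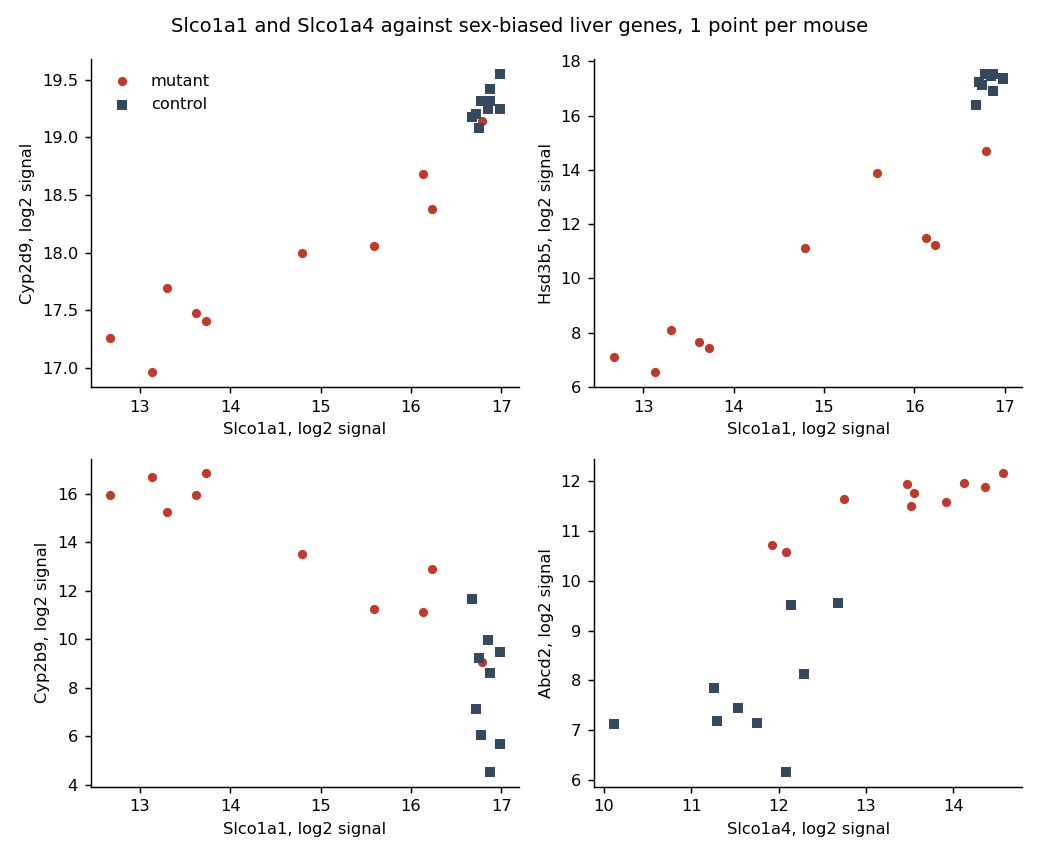
Log2 signal of *Cyp2d9*, *Hsd3b5* and *Cyp2b9* (vertical axes) against *Slco1a1* and of *Abcd2* against *Slco1a4* (horizontal axes), 1 point per mouse, with mutants as circles and controls as squares. Among the 10 mutants r was 0.94 for *Cyp2d9*, 0.91 for *Hsd3b5*, -0.92 for *Cyp2b9* and 0.89 for *Abcd2*.

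Targets of CAR and PXR, the receptors known to raise *Slco1a4*, were higher in mutant liver, 6 of 9 measured rising and 0 falling (median 0.77). *Cyp3a11* rose by 2.90 (SE 0.18, limma adjusted p = 3.03e-11), *Cyp2a5* by 2.52 and *Cyp3a13* by 0.77. Among the mutants, *Slco1a4* was positively correlated with all 9, but with a median r of 0.32 and 0 that passed. *Slco1a1* was negatively correlated with the same 9, with a median r of -0.57, and here too 0 passed. A uniform sign with these genes was therefore not particular to *Slco1a4*.

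Of 15 measured genes for receptors and factors that act on *Slco* genes, 4 rose and 2 fell (median 0.11). *Nr1i3*, the gene of CAR itself, averaged 12.86 ± 0.43 in mutants and 11.30 ± 0.60 in controls (SD, n = 10 and 9), and every mutant was above every control (change 1.56, SE 0.21, limma adjusted p = 1.14e-05). *Ghr*, the growth hormone receptor, fell by 0.57 (SE 0.12, limma adjusted p = 0.00137). *Nr0b2*, a repressor that bile acids induce, averaged 10.91 ± 0.86 in mutants and 12.40 ± 0.75 in controls (SD, n = 10 and 9) and fell as well (SE of the change 0.32, limma adjusted p = 0.00234).

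Targets of the oxidant-responsive factor NRF2 rose in 6 of 11 measured genes and fell in 0 (median 0.64), led by *Gsta2*, *Nqo1* and *Ephx1*, which rose by 3.38, 1.99 and 1.91. Among the mutants *Slco2b1* was negatively correlated with all 11 of these genes (median r = -0.53), and 2 passed by r and 0 by rho. They were *Gclc* (r = -0.88, permutation p = 0.0011, adjusted p = 0.029) and *Osgin1* (r = -0.86, permutation p = 0.0027, adjusted p = 0.037), both named after their values were seen. Between genotypes *Gclc* rose by 0.79 (limma adjusted p = 0.00372), but *Osgin1* did not pass the test (change -0.14, limma adjusted p = 0.856). Their rho values were both -0.85 (permutation p = 0.0029 and 0.0031, adjusted p = 0.074 for each), and r without the 2 farthest mutants was -0.81 for *Gclc* and -0.83 for *Osgin1*.

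Among 15 other carriers of anions and bile components in hepatocytes, 4 rose and 4 fell (median -0.04). *Slc22a7*, an organic anion uptake carrier of the sinusoidal membrane, fell by 2.75 (SE 0.23, limma adjusted p = 5.01e-09), and *Abcc3* and *Abcb1a*, both export pumps, rose by 1.93 and 1.62. *Slc10a1*, the sodium-dependent bile acid carrier of the same membrane as the Slco proteins, averaged 17.37 ± 0.35 in mutants and 17.41 ± 0.14 in controls (SD, n = 10 and 9) and did not pass the test (change -0.04, limma adjusted p = 0.90).

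Around *Slco2a1*, 2 of 17 measured genes of prostaglandin handling rose and 0 fell (median 0.11). They were *Cbr1*, a carbonyl reductase, which rose by 2.67, and *Hpgd*, which inactivates prostaglandins after their uptake, which rose by 0.67. Among 11 genes of thyroid hormone handling 1 rose and 2 fell (median -0.01). *Serpina7*, the thyroxine-binding globulin, rose by 2.69. *Slc16a10*, an iodothyronine and aromatic amino acid carrier, fell by 0.70, and *Thrsp*, a thyroid-responsive gene, fell by 1.59.

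Markers of other liver cells and of position in the lobule were set beside these changes, since *Slco2a1* is known from endothelium. Of 8 sinusoidal endothelial markers 1 rose, *Clec4g* (change 0.67), and their mean level was 9.89 to 10.43 in mutants and 9.87 to 10.10 in controls. Vascular endothelial markers (0 of 8 called) had mean levels of 7.20 to 7.64 in mutants and 7.20 to 7.54 in controls. Kupffer cell and macrophage markers rose in 4 of 7 genes, with a mean level of 8.65 to 10.08 in mutants and 8.19 to 9.08 in controls.

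Of the genes of the pericentral zone, 4 of 8 fell and 0 rose (median -0.34), and of those of the periportal zone 1 of 6 rose and 1 fell (median -0.15). Stellate cell markers (1 of 7 lower), cholangiocyte markers (1 of 6 lower, *Krt19* being detected on no array), lymphocyte markers (1 of 7 lower), neutrophil markers (0 of 7 called) and erythroid markers (1 of 2 lower) gave no more than 1 call each. The erythroid call was a large one, *Alas2* falling by 1.89 (SE 0.19, limma adjusted p = 1.18e-07), and only 2 of the 6 listed erythroid genes were measured. The part of any of these cells or zones in the *Slco* changes was not tested.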

How the data were processed

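Per the study's methods, the authors extracted RNA with TRIzol and columns, amplified and labelled it, and normalized the Mouse Clariom S scans with SST-RMA. The submitters' processing notes name RMA. What they deposited for every array and probe set is a normalized log2 signal and, beside it, a detection p-value that the authors' software gave. The genome build behind the probe sets is not given in the sources used here. Another deposited table of log2 values differed from it by no more than 0.0005.

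No further normalization was applied. The annotation names 1 gene for 19572 of the 22206 probe sets, several genes for 0 and none for 2634, which were left out. Where a gene had several probe sets (55 genes), the brightest on average stood for it, giving 19505 genes, with no filter on dim signals. Genotypes were compared with limma 3.58.1 (lmFit and eBayes, R 4.3.3), two-sided, with Benjamini-Hochberg adjustment over all genes and a threshold of 0.05. Intervals cover 95%. Exact tests and correlations (100000 permutations over 10 or more arrays) were computed with numpy 2.4.6, with ranks from scipy 1.17.1. In data simulated on these arrays, limma recovered 17 of 50 genes changed by 0.5 log2, 48 of 50 changed by 1 and 50 of 50 changed by 2, with 12 false calls among the unchanged of 19505 genes. The simulated noise was normal, independent between genes and of equal SD in both genotypes, and 50 genes were changed at each size, against 1962 called here. These rates therefore need not hold for the real arrays, nor for a gene with unequal SDs such as *Slco1a1*. No read depth exists for arrays, and the number of arrays limits the precision.

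The members and gene lists were chosen with earlier results of these data known, and the lists therefore give no independent support. Named beside the members were, in each pathway list, up to 3 called genes with the smallest adjusted p, for each called member the 3 genes closest by r, and other *Slco* genes as described. *Slc10a1*, *Cyp17a1*, *Cyp2b9*, *Abcd2*, *Gclc*, *Osgin1* and *Gm6614* fall outside this rule and were named after their values were seen. Listed genes without a named probe set were not analysed here. The labels number the mice as biological replicates, which were taken as separate animals. The study's methods name t-tests and Wilcoxon tests, and both were run as alternatives, beside other scalings, filters and weights, a block for the replicate number, a minimum change and each array left out.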

Additional observations from a re-analysis of the deposited data

How the results depend on the processing

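Each member's change was recomputed under 32 alternatives. *Slco1a1* stayed called in all 32, with changes of -2.48 to -2.02 and limma or alternative adjusted p-values of 8.48e-05 to 0.0335. *Slco1a4* (1.55 to 1.91) and *Slco2b1* (-0.58 to -0.47) each kept their call in 31. Both lost it when a change above 1.5-fold was required (limma treat), where the adjusted p was 0.0796 for *Slco1a4* (1.74) and 1 for *Slco2b1* (-0.53). Under that rule 0 members were higher and 1 was lower, and 186 genes of all were called, against 1962. The uncalled members, at -0.12 to -0.02 for *Slco1b2*, 0.25 to 0.37 for *Slco2a1* and 0.14 to 0.25 for *Slco3a1*, passed under none, and 0 of the other 8 *Slco* genes passed under any. With each array left out in turn the changes were -2.48 to -2.02 for *Slco1a1*, 1.55 to 1.91 for *Slco1a4* and -0.58 to -0.47 for *Slco2b1*, all called. Without mutant replicate 1 and control replicate 2 together, the arrays with the most detected probe sets of each genotype and an alternative added after seeing the data, they were -2.46, 1.71 and -0.55, all called. The correlations within each genotype were also added after seeing the data.

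The difference in change between *Slco1b2* and *Slco2a1* missed the threshold under quantile normalization (-0.34, exact permutation, adjusted p = 0.054) and without any 1 of 10 arrays (mutant replicates 2, 3, 4, 6, 9 and 10 and control replicates 1, 3, 6 and 9), with adjusted p-values of 0.0513 to 0.0892. The 14 other pairs kept their side of the threshold in all 21 alternatives run on them.

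No pairing of the mice by replicate number was seen. Deviations of same-numbered mutants and controls correlated at -0.09 to 0.06, and 0 of 9 matched their own number best. A weak pairing could go unseen in such a check. With the replicate number as a block the changes were -2.07 for *Slco1a1*, 1.64 for *Slco1a4*, -0.58 for *Slco2b1*, -0.07 for *Slco1b2*, 0.31 for *Slco2a1* and 0.21 for *Slco3a1*, the same 3 genes being called. Mutant replicate 10 has no partner and drops out of that fit.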
